A study of Mus musculus with 18 samples.

Results

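The mouse genes Tmem41b, Tbc1d16, Pdcd10 and Ezr act in membrane traffic, autophagy and the cell cortex, and their RNA was measured in 3 murine triple-negative breast cancer lines grown with and without folic acid. Their probes were found by name: a probe counted as a member when its ID begins with Mm_ncRNA and carries an accession that the mouse RefSeq gene table (assembly GRCm38.p6) lists for one of the 4 genes. That rule found 5 of the 80520 probes on the array, with 2 for Tbc1d16 and 1 for each of the other genes, and the 4 genes are among 143 whose probes could be named in this way. All 5 passed the filter on dim probes. Whether such a probe reads the messenger RNA, another transcript of the locus or the opposite strand was not checked, so what follows on a gene's protein is background on the gene, not on the probe.

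The cell lines (E-Wnt, M-Wnt, metM-Wnt) come from mammary tumor, per the labels, and each is represented by itself alone, so a difference between lines rests on 1 line of each kind. Cells were grown for 72 h either in a medium with 2.2 µM folic acid and regular fetal bovine serum (control medium) or in the same medium lacking folic acid, with dialyzed serum (withdrawal). Folic acid and serum therefore changed together, and their effects cannot be told apart. Each of the 6 groups had 3 arrays, described as biological replicates, and every array carried Cy5-labelled sample RNA (red) against Cy3-labelled RNA of NIH3T3, a mouse fibroblast line used as the common reference (green).

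All levels below are log2 ratios of sample to NIH3T3 reference after normalisation within each array. A value of 0 means the same signal in both. Mean red intensity over an array's probes ranged from 4129 to 6649 in E-Wnt, from 4213 to 5170 in M-Wnt in control medium and from 1964 to 3722 in M-Wnt after withdrawal. In metM-Wnt it ranged from 3268 to 3502 in control medium and from 2260 to 2837 after withdrawal, so red signal was lower after withdrawal in both of these lines. The part of that difference in the results was not tested. The arrays lay on 5 slides. All metM-Wnt arrays lay on slides without another line, so line and slide cannot be told apart where metM-Wnt is compared with E-Wnt or M-Wnt. None of 11 epithelial, 11 mesenchymal, 3 leukocyte and 3 endothelial marker genes had a probe named here, so the labelled lines were not checked against markers.

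Autophagy begins when a membrane sac, the phagophore, grows from the endoplasmic reticulum around cargo and closes. Tmem41b is an endoplasmic reticulum membrane protein and lipid scramblase that is needed for this growth. Membrane traffic between compartments is switched by Rab GTPases, which TBC domain proteins such as Tbc1d16 turn off by speeding GTP hydrolysis; Tbc1d16 acts on the recycling of surface receptors. Pdcd10, also called CCM3, is an adaptor of the STRIPAK complex that holds GCKIII kinases, takes part in Golgi positioning and is mutated in cerebral cavernous malformations. Ezr encodes ezrin, which links the plasma membrane to cortical actin in microvilli and other surface structures of epithelial cells.

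The probe sequences are shown, in part for Tbc1d16, because each level below was read by these probes alone. The Tbc1d16 level is the mean of its 2 probes. Tmem41b has a single probe of 60 bases, with 31.7% G and C against a median of 41.7% over all probes. Capitals mark a run of 7 thymines.
Tmem41b probe: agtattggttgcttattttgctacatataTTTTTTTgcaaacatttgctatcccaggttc
Ezr likewise has 1 probe of 60 bases, with 43.3% G and C.
Ezr probe: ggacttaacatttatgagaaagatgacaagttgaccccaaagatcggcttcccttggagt
The Pdcd10 probe shares 55 of its 60 bases with another probe of the array whose ID names no gene, and capitals mark the shared stretch. The 2 probes are offset by 5 bases, so each serves as a second reading of nearly the same target.
Pdcd10 probe: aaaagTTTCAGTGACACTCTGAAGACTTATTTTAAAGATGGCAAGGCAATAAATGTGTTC
overlapping Pdcd10 probe: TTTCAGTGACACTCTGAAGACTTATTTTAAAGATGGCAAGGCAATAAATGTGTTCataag
Tbc1d16 has 2 probes that share no stretch of 16 bases, of which 30 bases each are shown, positions 1 to 30 of the 60 bases of probe 1 and positions 13 to 42 of the 45 bases of probe 2. Capitals in probe 2 mark AATAAA, the letters of the common polyadenylation signal, which 9.616% of all probes and 11.166% of probes of 45 bases hold on either strand. The Pdcd10 probe and its overlapping probe hold these letters too.
Tbc1d16 probe 1: tgatgtctatagcaagtgattcgtttctct
Tbc1d16 probe 2: cctcacaaaacaAATAAAatagtatcacca

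Earlier results of these arrays chose the 4 genes, so some of their differences are descriptions without a test. Tmem41b and Pdcd10 were chosen from withdrawal in M-Wnt, Ezr from the control-medium difference between M-Wnt and E-Wnt, and Tbc1d16 from both and from the average of withdrawal over the lines, which uses all 18 arrays. A p-value is given below only where the groups compared share no array with those that chose the gene, so none is given for Tbc1d16. Each is from the limma model, 2-sided, and adjusted over all 41082 features tested (single probes, or genes where a name was found). The model takes the spread from all 18 arrays, so the choosing arrays still enter the error behind each p-value. A feature is called at an adjusted p under 0.05. Errors are the model's standard errors (SE), with 3 arrays in each group, and changes between groups are log2 differences.

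Tmem41b was lowest in M-Wnt cells after withdrawal and highest in metM-Wnt in control medium. In M-Wnt control medium the 3 arrays gave 1.50, 1.69 and 1.90, and after withdrawal they gave 0.89, 0.82 and 0.54. The 2 media did not overlap in this line, and the difference was -0.94 ± 0.17 (SE), 1.92-fold lower after withdrawal. In whole cultures, fewer expressing cells and less RNA per cell cannot be told apart. This contrast chose the gene, so no test is given; 18.4% of all features were called in it. The mean red intensity of the probe was 1148 to 1228 in M-Wnt in control medium and 259 to 575 after withdrawal, while its green intensity was 364 to 533 and 531 to 542. Red signal over the whole array was lower after withdrawal as well, at 1964 to 3722 against 4213 to 5170.

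In E-Wnt, Tmem41b stood at 1.12, 0.60 and 1.27 in control medium and at 1.19, 1.35 and 1.22 after withdrawal. The groups overlapped, and replicate 2 in control medium was the low array. The difference of 0.26 ± 0.17 was not called (adjusted p = 0.76), with a 95% interval from -0.10 to 0.61. In metM-Wnt the gene stood at 1.91, 1.79 and 1.59 in control medium and at 1.40, 1.76 and 1.48 after withdrawal. Here too the media overlapped, and the difference of -0.21 ± 0.17 was not called (adjusted p = 0.64), with an interval from -0.57 to 0.14. The withdrawal response of metM-Wnt minus that of E-Wnt was -0.47 ± 0.23 (adjusted p = 0.41). The same difference for M-Wnt minus E-Wnt was -1.20 ± 0.23 and for M-Wnt minus metM-Wnt -0.73 ± 0.23; both contain the arrays that chose the gene and are descriptions.

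Between lines in control medium, Tmem41b was higher in metM-Wnt than in E-Wnt by 0.76 ± 0.17 (1.70-fold, adjusted p = 0.0012), and all 3 metM-Wnt arrays lay above all 3 E-Wnt arrays. In this comparison 44.1% of all features were called and 23.5% were called higher, and the size of the difference exceeded that of 75.5% of features. The call was lost when arrays were centred on their median instead of normalised by loess (0.55, adjusted p = 0.19, with the median of all features at -0.17). The share of called features that were higher in this comparison was 53.2%, and 32.5% under median centring. Without folic acid the metM-Wnt arrays again lay above the E-Wnt arrays, but the difference of 0.29 ± 0.17 was not called (adjusted p = 0.17). Under median centring it was -0.26, which is above the median of all features there (-0.40). M-Wnt was 0.70 ± 0.17 higher than E-Wnt in control medium and 0.50 lower without folic acid (-0.50 ± 0.17), as a description. The means ran from metM-Wnt control (1.76) through M-Wnt control (1.70), metM-Wnt withdrawal (1.55), E-Wnt withdrawal (1.25) and E-Wnt control (0.997) to M-Wnt withdrawal (0.75). Neighbours in this order overlapped array by array, except metM-Wnt withdrawal and E-Wnt withdrawal.

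Pdcd10 was likewise lowest in M-Wnt after withdrawal, and its other 5 group means ran from 0.73 to 1.02. The M-Wnt arrays gave 0.83, 1.11 and 1.14 in control medium and 0.43, 0.44 and 0.33 after withdrawal. They did not overlap, and the difference in this choosing contrast was -0.62 ± 0.16, 1.54-fold lower after withdrawal. With median centring it was -1.33, where the median over all features stood at -0.25. The other 5 group means were then further apart, from 0.60 in metM-Wnt withdrawal to 1.32 in M-Wnt control, with M-Wnt withdrawal at -0.01. In the red channel alone (sample signal without the reference) the M-Wnt difference was -0.46, the smallest size over all settings run. The overlapping probe gave 0.87, 1.17 and 1.27 in control medium and 0.60, 0.55 and 0.35 after withdrawal, a difference of -0.60 ± 0.17. Over the 18 arrays the Pdcd10 probe minus the overlapping probe averaged -0.061 (SD 0.070), ranging from -0.17 to 0.054. Since the probes share nearly all of their letters and the same RNA, the second reading bears on the error of a spot and not on that of the cultures.

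In E-Wnt, Pdcd10 stood at 0.91, 0.76 and 1.19 in control medium and at 0.69, 1.02 and 0.87 after withdrawal, which overlapped. The difference was -0.09 ± 0.16 (adjusted p = 0.94), with an interval from -0.42 to 0.24. In metM-Wnt it stood at 0.93, 0.57 and 0.69 in control medium and at 0.98, 1.30 and 0.72 after withdrawal. That difference pointed upward, 0.27 ± 0.16, with overlapping arrays and an adjusted p of 0.49. Under median centring it was -0.0625, which is above the median of all features there (-0.17). The response of metM-Wnt minus that of E-Wnt was 0.36 ± 0.22 (adjusted p = 0.50). As descriptions, the response in M-Wnt was -0.53 ± 0.22 against E-Wnt and -0.90 ± 0.22 against metM-Wnt. In the red channel alone these were -0.47 and -0.50. With median centring they were -1.34 and -1.27, where the medians of all features stood at -0.35 and -0.10.

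Neither of the Pdcd10 line differences that could be tested was called. The metM-Wnt cells differed from E-Wnt by -0.22 ± 0.16 in control medium (adjusted p = 0.27) and by 0.14 ± 0.16 without folic acid (adjusted p = 0.50). M-Wnt differed from E-Wnt by 0.07 ± 0.16 in control medium. Without folic acid M-Wnt was below E-Wnt (-0.46 ± 0.16) and metM-Wnt was above M-Wnt (0.60 ± 0.16), both without overlap and both resting on the M-Wnt withdrawal arrays that chose the gene. Under median centring these were -1.21 and 0.61, where the medians of all features stood at -0.35 and -0.04. In the red channel alone they were -0.46 and 0.30. In the order of group means, from M-Wnt control (1.02) down to M-Wnt withdrawal (0.40), each group overlapped its neighbour except at the last step, from metM-Wnt control (0.73).

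**Figure D1:**
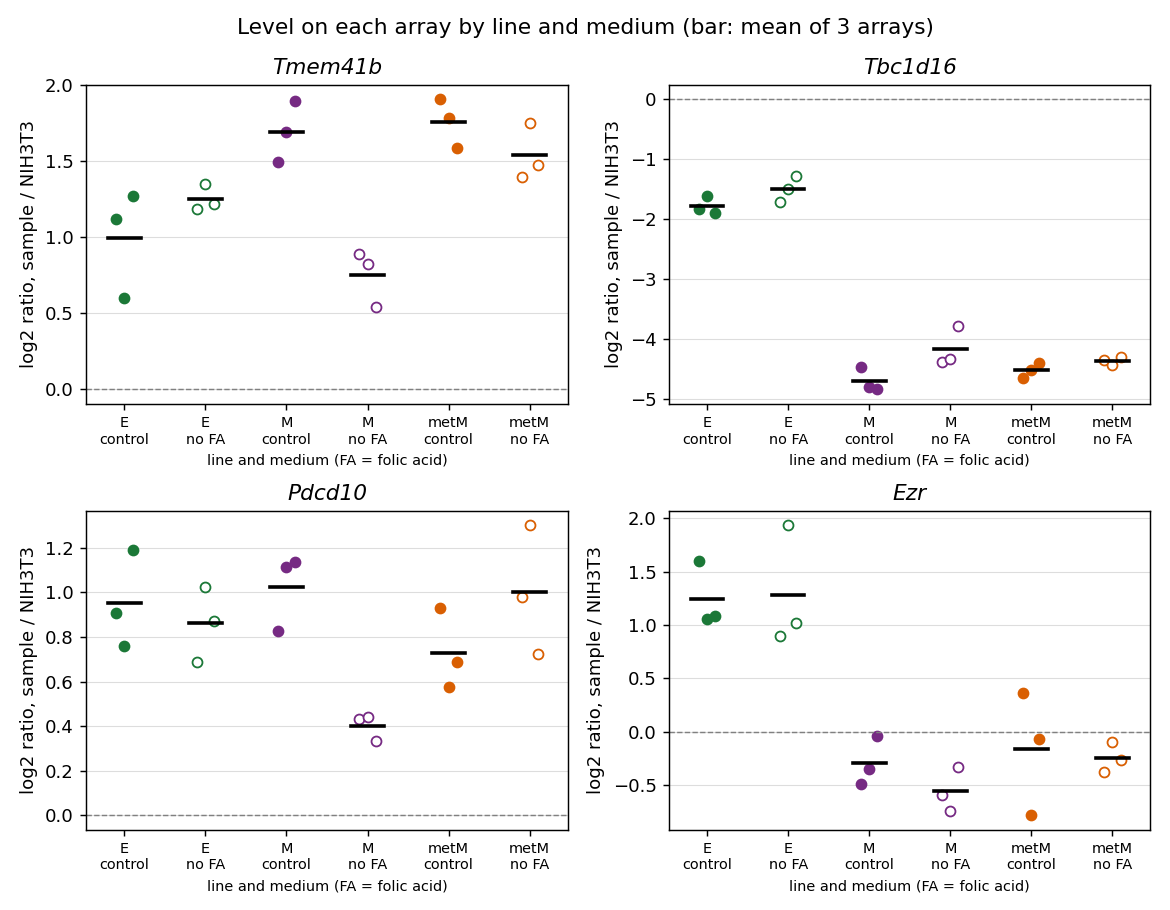
Level of each gene as log2 ratio of sample to NIH3T3 reference (y axis) on each of the 18 arrays, by line and medium (x axis); filled points are control medium, open points are medium without folic acid (FA), and bars are means of 3 arrays. Tmem41b and Pdcd10 are lowest in M-Wnt without folic acid, and Tbc1d16 and Ezr are higher in E-Wnt than in the other lines in both media.

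As the mean of its 2 probes, Tbc1d16 separated E-Wnt from the other lines by more than any other of the 4 genes. By probe 2 alone it did not in every comparison. Without folic acid, M-Wnt minus E-Wnt was -1.71 by that probe, against -1.83 for Ezr. E-Wnt arrays gave -1.82, -1.61 and -1.90 in control medium and -1.71, -1.49 and -1.28 after withdrawal. M-Wnt arrays gave -4.46, -4.79 and -4.83 in control medium and -4.37, -4.32 and -3.78 after withdrawal. The metM-Wnt arrays gave -4.64, -4.50 and -4.40, then -4.34, -4.43 and -4.29. Every line was below the NIH3T3 reference, and no array of E-Wnt overlapped any of the other lines. Without folic acid the metM-Wnt level minus that of E-Wnt was -2.86 ± 0.16. It averages 2 unlike probes, at -4.07 ± 0.19 (probe 1) and -1.65 ± 0.14 (probe 2). No fold is given, because the probes differ in size and the metM-Wnt red signals were dim.

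All differences of Tbc1d16 share arrays with the choosing contrasts and are descriptions. M-Wnt minus E-Wnt was -2.92 ± 0.16 in control medium, where 45.6% of features were called, and -2.66 ± 0.16 without folic acid. The metM-Wnt level minus that of E-Wnt was -2.74 ± 0.16 in control medium. The M-Wnt and metM-Wnt lines differed by less, with metM-Wnt minus M-Wnt at 0.18 ± 0.16 in control medium and -0.20 ± 0.16 without folic acid, and their arrays overlapped in both media.

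The 2 Tbc1d16 probes gave the same direction between lines but not the same size. Probe 1 averaged -1.99 in E-Wnt and -6.01 in M-Wnt in control medium, a difference of -4.02 ± 0.19. Probe 2 averaged -1.56 and -3.38, a difference of -1.81 ± 0.14. Probe 1 minus probe 2 was -0.42 in E-Wnt control and -0.28 in E-Wnt withdrawal, and between -2.18 and -2.69 in the 4 groups of M-Wnt and metM-Wnt. Red intensity of both probes in those 4 groups was near the dim end of the array, 94.7 to 173 for probe 1 and 101 to 198 for probe 2, background included, while the green signal of probe 1 was 9586 to 13764 and that of probe 2 was 1740 to 3016. In E-Wnt the red intensity was 3491 to 6457 for probe 1 and 866 to 1423 for probe 2. All probe 2 spots were well above background, and 1 metM-Wnt withdrawal array had only 1 of 2 probe 1 spots above it. With probe 2 alone the metM-Wnt difference from E-Wnt without folic acid was -1.65, the smallest size over all settings tried.

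The Tbc1d16 level of M-Wnt after withdrawal minus that in control medium was 0.54 ± 0.16, in a choosing contrast, and the media did not overlap. The difference was 0.76 ± 0.19 by probe 1 and 0.31 ± 0.14 by probe 2. Red intensity of probe 1 itself was 136 to 173 in control medium and 116 to 162 after withdrawal, so the higher ratio went with red signals that overlapped and with lower red signal over the whole array. In the red channel alone the difference was 0.10, and with median centring it was 0.07 where the median over all features stood at -0.25. E-Wnt gave 0.28 ± 0.16 and metM-Wnt 0.16 ± 0.16, both with overlapping media, and the average over the 3 lines was 0.33 ± 0.09, where 6.91% of features were called. That average was 0.11 with median centring and 0.02 in the red channel alone. Within the slide that held both E-Wnt media, the E-Wnt value was 0.06. The metM-Wnt value was negative in the red channel alone (-0.26) and with the processed signals (-0.31). Under median centring it was -0.12, which is above the median of all features there (-0.17). The response of M-Wnt differed from that of E-Wnt by 0.25 ± 0.23 and from that of metM-Wnt by 0.38 ± 0.23, and that of metM-Wnt minus E-Wnt was -0.12 ± 0.23.

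**Figure D2:**
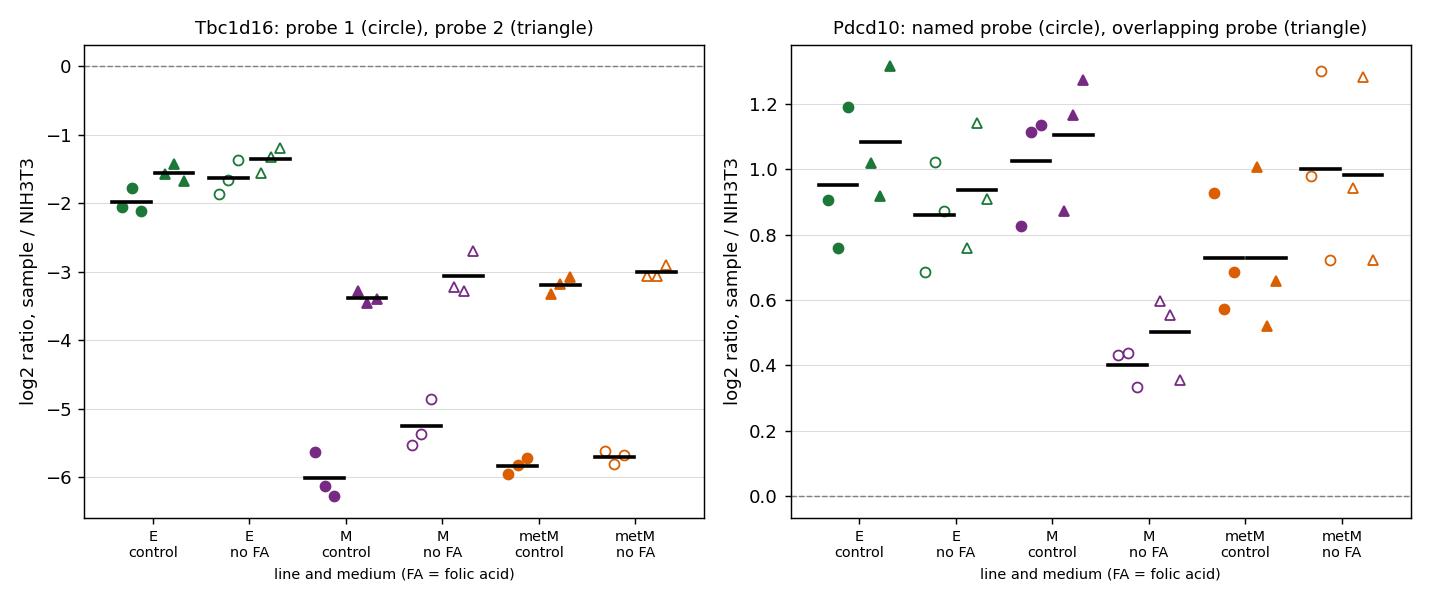
Log2 ratio to NIH3T3 on each array (y axis) by line and medium (x axis) for the 2 Tbc1d16 probes (left) and for the Pdcd10 probe with its overlapping probe (right); circles are the first and triangles the second probe of a pair, filled in control medium and open without folic acid (FA), and bars are means of 3 arrays. The Tbc1d16 probes lie within 0.42 of each other on average in E-Wnt control and over 2 log2 units apart in M-Wnt and metM-Wnt, whereas the Pdcd10 pair differs by 0.17 at most.

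Ezr also separated E-Wnt from the other lines, with a larger model SE (0.28) than the other 3 genes. Its spread was not the widest in every group: in E-Wnt control its SD was 0.31, against 0.35 for Tmem41b. E-Wnt arrays gave 1.60, 1.05 and 1.08 in control medium and 0.90, 1.93 and 1.02 after withdrawal. M-Wnt arrays gave -0.48, -0.34 and -0.04, then -0.59, -0.74 and -0.33. The metM-Wnt arrays gave 0.36, -0.78 and -0.06, then -0.37, -0.10 and -0.26. Every E-Wnt array lay above the reference and above every array of the other lines, while 11 of the 12 M-Wnt and metM-Wnt arrays lay below the reference. In arrays that did not choose the gene, M-Wnt without folic acid was lower than E-Wnt by -1.83 ± 0.28 (adjusted p = 4.3e-05), where 45% of features were called and 21.4% were called lower. No fold is given, because only 1 of the 2 spots was above background on each of the M-Wnt arrays. Likewise metM-Wnt without folic acid was lower than E-Wnt by -1.53 ± 0.28 (adjusted p = 2.7e-04), where 43.4% of features were called and 21.4% were called lower. The difference was larger than that of 91.8% of features, and -2.42 by the deposited processed signals. No fold is given here either. Red intensity on these metM-Wnt arrays was 87.8 to 120, background included, and 1 array had only 1 of the 2 spots above background.

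No slide held E-Wnt and M-Wnt arrays without folic acid together. With slide as a fixed block the M-Wnt difference was -2.40. That value is linked through M-Wnt control arrays, which chose the gene, so it is a description without a p-value. The deposited processed signals gave -2.98. Over all settings run for it, that of the slide block included, the difference stayed between -2.98 and -1.51. In control medium the corresponding differences, which share arrays with the choosing contrast, were -1.53 ± 0.28 for M-Wnt and -1.41 ± 0.28 for metM-Wnt against E-Wnt.

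The Ezr probe was the dimmest of the 5, with red intensity of 443 to 1118 in E-Wnt and 82.6 to 192 in the other lines, background included. On 14 of 18 arrays it was well above background at both spots. On each of the 3 M-Wnt withdrawal arrays, and on 1 metM-Wnt withdrawal array, only 1 of the 2 spots was. The Ezr arrays of the 2 media overlapped in all 3 lines. The metM-Wnt difference of -0.08 ± 0.28 (adjusted p = 0.95) had an interval from -0.67 to 0.51, and the direction turned when the high control array, replicate 1, was left out (0.18). E-Wnt gave 0.04 ± 0.28 and M-Wnt -0.26 ± 0.28, both as descriptions; by the processed signals M-Wnt gave -0.74. M-Wnt and metM-Wnt arrays overlapped in both media: metM-Wnt minus M-Wnt was 0.13 ± 0.28 in control medium, and 0.31 ± 0.28 without folic acid (adjusted p = 0.56, interval from -0.28 to 0.90).

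**Figure D3:**
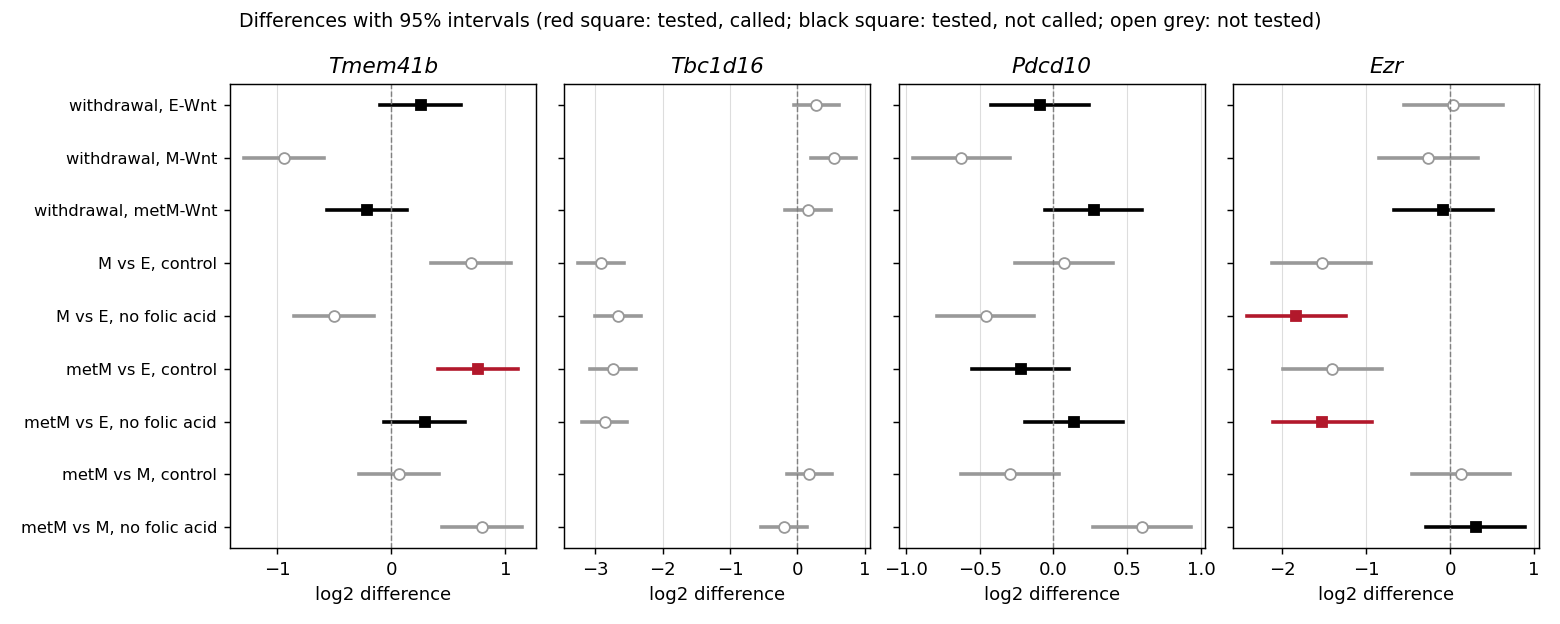
Log2 differences (x axis) with 95% intervals for each gene in 9 comparisons of withdrawal or of lines (y axis), with 3 arrays per group; red squares were tested and called, black squares were tested and not called, and open grey circles were not tested because they share arrays with the comparison that chose the gene. The called differences are Tmem41b in metM-Wnt against E-Wnt in control medium (0.76), Ezr in metM-Wnt against E-Wnt without folic acid (-1.53) and Ezr in M-Wnt against E-Wnt without folic acid (-1.83).

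Counted over the tests, no gene tested for withdrawal in metM-Wnt or E-Wnt was called. In metM-Wnt 0 of 3 tested genes were called, beside 0.404% of all features, and in E-Wnt 0 of 2, beside 0.0389%. By limma 5433 and 3292 of the 41082 features had an unadjusted p under 0.05 in these lines. Of the genes, 0 of the 3 and 0 of the 2 did, and their lowest unadjusted p was 0.10 (Pdcd10 in metM-Wnt). With so few genes, counts of 0 cannot be told apart from the shares over all features. For the difference in response between metM-Wnt and E-Wnt, 0 of 2 genes were called, beside 0.0852% of features, and the lowest unadjusted p was 0.062 (Tmem41b). Between metM-Wnt and E-Wnt, 1 of 2 tested genes was called in control medium and 1 of 3 without folic acid, beside 44.1% and 43.4% of all features, so these shares are near the background. Ezr was the single gene tested in M-Wnt against E-Wnt (called) and in metM-Wnt against M-Wnt without folic acid (not called, where 7.73% of features were).

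**Figure D4:**
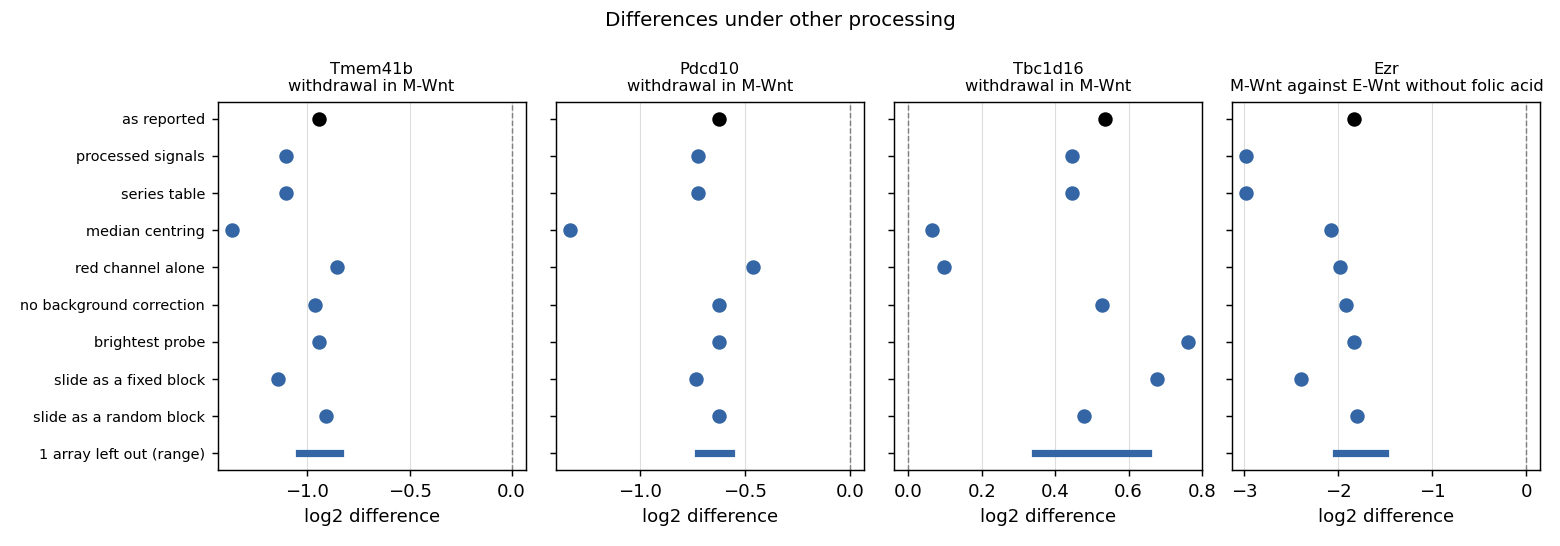
Log2 differences (x axis) under each processing setting (y axis) for withdrawal in M-Wnt (Tmem41b, Pdcd10, Tbc1d16) and for Ezr in M-Wnt against E-Wnt without folic acid; black points are the reported values, blue points other settings, and the blue bar spans the 18 fits that each leave out 1 array. Every value keeps its sign, but that of Tbc1d16 is 0.54 as reported, 0.07 with median centring and 0.10 in the red channel alone.

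Of the pathway genes listed beside the members, only Rab5b, the Rab GTPase of early endosomes, had a named probe. It was 1 of 88 Rab and TBC domain genes, and none of 41 phagophore genes, 19 partners of Pdcd10 in the cerebral cavernous malformation and STRIPAK complexes, 26 cell cortex genes and 35 coat, tether and fusion genes had one. Rab5b was called in none of the 13 comparisons; its lowest adjusted p was 0.087, in metM-Wnt against E-Wnt without folic acid (-0.37 ± 0.17).

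Among the other 67 named and tested genes, the likeness of a pattern was taken as the root mean square difference of the 6 group means after each gene's own mean was subtracted. Nearest to Tmem41b were Ccdc137 (0.20) and Acaca, which encodes acetyl-CoA carboxylase of fatty acid synthesis (0.22), against a median of 0.42 over the compared genes. Nearest to Pdcd10 were Ramac, a cofactor of messenger RNA cap methylation (0.13), and Chmp3, a subunit of the ESCRT-III membrane scission machinery (0.17), against a median of 0.31. Chmp3 stood at 0.60 ± 0.24 (SD, n = 3) in M-Wnt in control medium and at 0.35 ± 0.21 after withdrawal. Its means in control medium and after withdrawal were higher in E-Wnt (0.88 and 1.02) and metM-Wnt (0.71 and 0.94), whereas Pdcd10 was highest in M-Wnt control. Ramac, the nearer gene, stood at 0.71 ± 0.33 and 0.29 ± 0.07 in the same M-Wnt groups, and was highest in E-Wnt withdrawal (0.95). Tbc1d16 was nearest to Ezr (0.63), and Ezr was nearest to Pate14 (0.32) and Gm904 (0.39). Tbc1d16 and Ezr were both chosen for M-Wnt against E-Wnt, so their likeness is partly the choice itself.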

How the data were processed

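RNA was measured on 18 two-colour arrays, 3 for each of 3 lines in 2 media. The deposited scanner files give linear red and green intensity for each spot. Agilent Feature Extraction 10.7.3.1 made them, per the submitters' processing notes. The deposited series table holds a log10 ratio, red over green, for each array, and served as an alternative; what else the authors did to it is not given in the sources used here. From the intensities, background was corrected with normexp (offset 50), ratios were normalised within arrays by loess (control and outlier spots at weight 0), and the spots of a probe and the probes of a named gene were averaged, in limma 3.58.1 under R 4.3.3 (data.table package, version 1.17.8). The filter asked for red signal well above background at both spots in every array of some group. It passed 41089 probes, or 41082 features after gene averaging; 20 probes without a usable spot were left out. Between 40.9% and 53.7% of probes per array were above background in red, and the number of arrays limits the precision.

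One limma fit to the means of the 6 groups (lmFit and eBayes, no trend, all 18 arrays) gave every SE, 95% interval and adjusted p, with Benjamini-Hochberg adjustment over all features at a threshold of 0.05. The script was tested on simulated data. The members and lists were chosen with earlier results of these data known. The rule for named genes was the 4 members, the 2 nearest named genes of each and any tested list member. P-values are withheld for every comparison that shares arrays with a gene's choosing contrast, which leaves none for Tbc1d16 and is stricter than the planned design. Names came from the mouse RefSeq gene list (GRCm38.p6), which matched 193 of 19687 probes with an accession to 143 genes, 68 of them tested; its coordinates are not given because the array headers name another build. Replicate numbers did not pair the samples across media (correlations from -0.65 to 0.55). Figures were drawn with matplotlib 3.10.9.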

Additional observations from a re-analysis of the deposited data

How the results depend on the processing

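For the 14 tested values, 434 alternatives were run, and 422 kept the direction and the side of the threshold. Many of these could not move the difference, such as leaving out an array of a group not compared, or a replicate block. The processed signals and the series table hold nearly the same values. The count is therefore no measure of robustness. It includes the slide block for Ezr in M-Wnt against E-Wnt, which drew on arrays that chose the gene. Median centring of each array shifted the median of all features by -0.29 for withdrawal in M-Wnt, by -0.16 for withdrawal in metM-Wnt, by -0.22 for the difference of response between metM-Wnt and E-Wnt, and by -0.23 in control medium and -0.42 without folic acid for metM-Wnt against E-Wnt. Of the calls in the latter, 50.7% were higher, and 16.9% under median centring; in M-Wnt against E-Wnt without folic acid these shares were 52.3% and 20.0%. Under it the number of genes called in metM-Wnt against E-Wnt in control medium was 0 in place of 1, since Tmem41b gave 0.55 (adjusted p = 0.19). Values that changed sign under it, none of them called either way, were Pdcd10 on withdrawal in metM-Wnt (-0.0625) and in E-Wnt (0.011), Tmem41b (-0.26) and Pdcd10 (-0.59) in metM-Wnt against E-Wnt without folic acid, and Pdcd10 in the difference of response between metM-Wnt and E-Wnt (-0.073). Relative to the median of all features under that setting, all of these but Pdcd10 in metM-Wnt against E-Wnt without folic acid (-0.20) kept the reported sign. In the red channel alone Pdcd10 changed sign on withdrawal in E-Wnt (0.0066) and in metM-Wnt against E-Wnt without folic acid (-0.16), and Tmem41b in the latter comparison was called (0.40, adjusted p = 0.037), which made the number called there 2 in place of 1. Leaving out 1 array at a time moved Pdcd10 on withdrawal in E-Wnt between -0.19 and 0.027, Ezr on withdrawal in metM-Wnt between -0.39 and 0.18, and Pdcd10 in metM-Wnt against E-Wnt without folic acid between -0.0092 and 0.28. The cause of these changes was not tested. With a replicate block, which the pairing check did not bear out, the number called was still 1 in metM-Wnt against E-Wnt in control medium and 1 without folic acid, and no call changed (Tmem41b 0.76, adjusted p = 0.00315). The 38 untested values moved by more than the spread of replicates in 86 of 1187 alternatives, many of which likewise could not move them. Slide as a fixed block gave no value for metM-Wnt against another line. Probe 2 of Tbc1d16 alone and the overlapping probe for Pdcd10 were alternatives chosen after seeing the data. Signal over background limits Tbc1d16 and Ezr in M-Wnt and metM-Wnt, where red signals were dim.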
